A study of Mus musculus with 4 samples.

Results

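Osr1 and 8 other transcription factors that mark mesenchymal cells of the liver (Wt1, Tcf21, Gata4, Gata6, Twist1, Lhx2, Tbx18 and Bnc1) were followed across single non-parenchymal liver cells of mice. The 9 genes were taken by symbol from the 31053 features of the deposited tables, and each symbol matched 1 feature. The series title asks about Osr1 when liver mesenchymal cells turn mesothelial. Fatty liver disease was induced for 8 weeks with a methionine- and choline-deficient diet of 45% fat and 0.1% L-methionine in the drinking water (MCDHF). Cells of the positive and the negative reporter fraction were taken from mice at injury and in recovery, which gives 4 groups of 1 library each.

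The genotypes were labelled Col1a2-CreERT2; R27RtdTomato for positive recovery, Col1a2-CreERT2; R29RtdTomato for negative recovery and Col1a2-CreERT2; R28RtdTomato for negative injury, while the series text and the positive injury label write R26RtdTomato. The Cre recombinase is thus driven by the collagen gene Col1a2 in all groups, and the diet was given to all of them. How long recovery lasted, the age of the mice, how many were pooled and how cells were sorted into fractions were not given in the sources used here. For positive injury (5311 barcodes) the counts were not analysed here, and the positive fraction is covered in recovery only. After filtering, 2045 positive recovery, 2812 negative recovery and 5267 negative injury cells remained, with medians of 12834, 8812.5 and 6990 unique molecular identifiers (UMIs, the counted transcript copies). Each group is 1 library, so differences have no replicate check and no test was run. Reporter fraction, stage and library cannot be told apart, and all intervals are 95% intervals of counting error alone. The tdTomato transcript was not among the features. Col1a2 stood at 433 UMIs per 1000000 UMIs (CPM) in the positive recovery library, against 4.80 in the negative recovery library, and was 20.2 CPM at injury in the negative fraction.

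Identity transcription factors keep a cell in its lineage by holding a set of genes on or off. Osr1 is a zinc finger factor of the embryonic intermediate and lateral plate mesoderm. Wt1 is a zinc finger factor of mesothelium, the cell sheet that covers the liver and other organs, and of the mesenchyme that arises from it. Bnc1 (basonuclin) is an epithelial zinc finger factor also found in mesothelium, and Tbx18 is a T-box factor known from epicardium. Tcf21, a basic helix-loop-helix factor, and Lhx2, a LIM homeodomain factor, are found in hepatic stellate cells, the vitamin A-storing pericytes that become scar-forming myofibroblasts. Mice without Lhx2 develop liver fibrosis as embryos. Gata4 and Gata6 are zinc finger factors of mesoderm and endoderm, and Gata4 is also known to set the identity of sinusoidal endothelium. Twist1 is a basic helix-loop-helix factor of mesenchyme and of epithelial to mesenchymal transition.

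All 9 genes are protein-coding in GENCODE M21 (mm10). Osr1 lies on chromosome 12 (9570116 to 9581500, plus strand) and Twist1 on the same chromosome (33957671 to 33959829, plus strand). Wt1 (105126529 to 105173616) and Lhx2 (38339281 to 38369733) are on the plus strand of chromosome 2. Tcf21 is on chromosome 10 (22817281 to 22820174, minus strand), Gata4 on chromosome 14 (63198922 to 63271692, minus strand) and Gata6 on chromosome 18 (11052064 to 11085635, plus strand). Tbx18 lies on chromosome 9 (87702800 to 87731260, minus strand) and Bnc1 on chromosome 7 (81966672 to 81992292, minus strand). Transcripts annotated on the opposite strand overlap Osr1, Tcf21, Gata6, Lhx2, Tbx18 and Bnc1, and whether counting used strand was not given in the sources used here. Of these partners, 1010001N08Rik at Gata6 had 282 UMIs in positive recovery, 69 in negative recovery and 174 in negative injury, and Gm10824 at Tcf21 had 10, 0 and 0.

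Most of these factors were concentrated in the positive fraction, while Gata4 and Twist1 ran the other way. Osr1 stood at 93.1 CPM (89.7 to 96.5; 2904 UMIs) in the positive recovery library and at 0.185 CPM (0.0599 to 0.431; 5 UMIs) in the negative recovery library, a 504-fold ratio (216 to 1550). Wt1 was at 315 CPM against 18.4, Tcf21 at 92.3 CPM against 2.18, Lhx2 at 34.8 CPM against 1.59, Bnc1 at 135 CPM against 11.9, and Tbx18 at 4.61 CPM against 0.221. For each of these 6 genes the counting intervals of the libraries lay far apart. Gata6 differed less, at 258 CPM in positive against 61.7 CPM in negative recovery cells, a 4.18-fold ratio (3.97 to 4.41). Gata4 had 47.8 CPM (45.4 to 50.3) in positive and 186 CPM (181 to 192) in negative recovery cells, a ratio of 0.257 (0.242 to 0.272). Twist1 also had the lower level in positive recovery cells, with 30.3 CPM against 62.9, a ratio of 0.483 (0.445 to 0.523). In sums over a library, fewer cells of a type and less RNA per cell cannot be told apart.

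**Figure D1:**
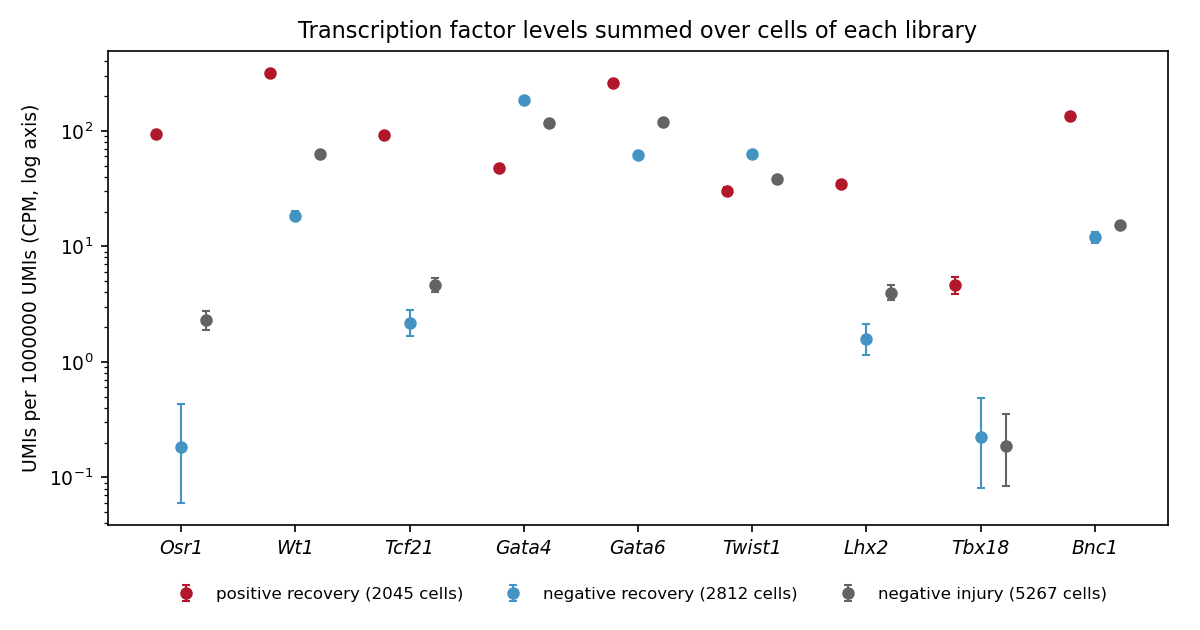
Level of each factor summed over the cells of a library, in UMIs per 1000000 UMIs on a log axis, with exact Poisson 95% intervals of counting error. Osr1 stands at 93.1 CPM in the positive recovery library, 0.185 in the negative recovery library and 2.31 in the negative injury library, while Gata4 and Twist1 are lower in the positive recovery library than in either negative library.

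With 10 CPM added to both levels, 6 of the 9 factors were at least 2-fold higher in positive recovery cells, where 5.58% of the 16210 features tested were. The log2 ratios on that scale were 3.51 for Wt1, 3.34 for Osr1, 3.07 for Tcf21, 2.73 for Bnc1, 1.95 for Lhx2 and 1.90 for Gata6. Only Gata4 (-1.76) was at least 2-fold lower among the members, where 6.42% of features were. Tbx18 (0.52) and Twist1 (-0.85) stayed within 2-fold, and the added 10 CPM holds down the ratio of a gene as low as Tbx18, whose raw ratio was 20.8 (9.35 to 57.7). The median log2 ratio was 1.95 over the 9 members and -0.051 over all features. TMM scaling shifts the log2 ratios of well-expressed genes by 0.16 here and by -0.11 between recovery and injury, and it left the calls of the members in place.

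Between stages of the negative fraction the factors differed less, and Wt1 was the 1 member past 2-fold with 10 CPM added. Wt1 stood at 18.4 CPM in negative recovery cells, against 62.5 CPM in negative injury cells (log2 ratio -1.35), in a comparison where 2.06% of 16067 features were at least 2-fold lower and 0.946% at least 2-fold higher. Osr1 was at 0.185 CPM against 2.31 CPM (112 UMIs), a raw ratio of 0.0799 (0.0254 to 0.192) that the added 10 CPM reduces to a log2 ratio of -0.27. Mesothelial-like clusters gave 98.4% of the Wt1 UMIs and 4 of the 5 Osr1 UMIs in recovery. At injury they gave 3005 of the 3029 Wt1 UMIs and 109 of the 112 Osr1 UMIs. These clusters held 83 of 2812 negative recovery and 313 of 5267 negative injury cells. Within them Wt1 stood at 309 CPM (283 to 338) in recovery and 492 CPM (475 to 510) at injury, a smaller difference than in the library sums. Osr1 stood at 2.52 and 17.9 CPM there. The part of cell numbers in the library sums was not tested. Gata6 was lower in recovery (61.7 CPM against 118; log2 ratio -0.84), and Gata4 (186 CPM against 116; 0.63) and Twist1 (62.9 CPM against 38.5; 0.59) were higher, all within 2-fold. Tcf21 (2.18 CPM against 4.62), Lhx2 (1.59 CPM against 3.98), Bnc1 (11.9 CPM against 15.2) and Tbx18 (0.221 CPM against 0.186) had log2 ratios between -0.27 and 0.01. The added 10 CPM also holds down 2 of these ratios, since the raw ones were 0.471 (0.348 to 0.63) for Tcf21 and 0.399 (0.28 to 0.557) for Lhx2.

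The share of cells with a UMI followed the same order. An Osr1 UMI was found in 415 of 2045 positive recovery cells (20.3%), in 3 of 2812 negative recovery cells (0.107%) and in 48 of 5267 negative injury cells (0.911%). After every cell was thinned to 1000 UMIs the shares were 5.72% (117 cells), 0 of 2812, which allows a share of up to 0.107%, and 0.0949% (5 cells). At equal depth the positive library thus stood apart, while 0 and 5 cells are too few to order the 2 negative libraries. Unthinned, their shares had intervals apart (0.0220% to 0.312% in recovery, 0.673% to 1.21% at injury), with the lower median depth at injury (6990 against 8812.5 UMIs). Wt1 was found in 20.2% of thinned positive recovery cells (66.6% unthinned), 0.782% of negative recovery cells (3.09% unthinned) and 2.13% of negative injury cells (5.87% unthinned). For Gata4 the thinned shares were 4.30%, 16.8% and 14.8%, and unthinned 37.5%, 62.8% and 51.2%.

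The cells of the 3 libraries fell into 27 clusters built without the 9 members, and the members were read out in them afterwards. Mesothelial-like cells formed clusters 2 (884 positive recovery, 83 negative recovery and 2 negative injury cells), 10 (332 cells, all from positive recovery) and 11 (2 positive recovery and 311 negative injury cells). Cluster 10 had 10 of 12 mesothelial markers at least 2-fold above the median cluster. It was led by Dcn, Igfbp5, Igfbp6 (itself a mesothelial marker of the list) and Col3a1. Dcn, Igfbp5 and Igfbp6 were also among the top 10 genes of clusters 2 and 11, and Col3a1 was not. Stellate-like cluster 19 held 61 positive recovery, 6 negative recovery and 36 negative injury cells. Cluster 12 (257, 2 and 8 cells) had 11 of 12 stellate markers but was led by Dcn, Col3a1, Gsn, Col1a1, Cxcl12 and Lum. Its top 10 genes held Dpt, a portal fibroblast marker of the lists, and no stellate marker, and it was left unnamed. Dcn and Cxcl12 were also among the top 10 genes of stellate-like cluster 19. Cluster 22 (53, 0 and 3 cells) carried all 12 stellate and all 12 sinusoidal endothelial markers at a median of 23506 UMIs per cell in the positive recovery library, and was left unnamed too. Called doublets were removed, but the caller marked 0.203% and 0.0918% of cells in the negative libraries and did not work there.

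Osr1 was all but limited to cluster 10. It reached 428 CPM (412 to 445) there, with a UMI in 291 of 332 cells and up to 67 UMIs in 1 cell, and this cluster gave 92.4% of the library's 2904 Osr1 UMIs. In mesothelial-like cluster 2 of the same library it stood at 8.80 CPM (7.44 to 10.4), with a UMI in 87 of 884 cells. Cells of cluster 2 in the negative recovery library had 2.52 CPM (0.687 to 6.45; 4 UMIs), and cluster 11 of the injury library had 18.0 CPM (14.8 to 21.7). Median depths were 15537.5 UMIs in cluster 10, 15714.5 and 15818 in cluster 2 of the positive and negative recovery libraries, and 19770 in cluster 11. The summed level of cluster 11 lay between those of clusters 2 and 10 of positive recovery. Osr1 was detected in 45 of its 311 cells, with at most 17 UMIs in a cell. In thinned cells its share (5 of 311; 0.524% to 3.712%) overlapped that of positive recovery cells of cluster 2 (8 of 884; 0.3915% to 1.775%). The level of cluster 2 was also below the 20.7 CPM of Kupffer-like cells of its library, which should lack the gene. In the injury library, sinusoidal endothelial-like cells had 0.0487 CPM of Osr1 (1 UMI in 3137 cells) and cholangiocyte-like cells 0 UMIs in 225 cells. Cluster 11 stood above both of these types of its own library, where only 1 Kupffer-like cell was found. The thinned shares rest on 5 and 8 cells, too few to order the clusters. Whether cluster 11 held an intermediate Osr1 state was not tested, since stage, fraction and library cannot be told apart.

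Outside the mesothelial-like clusters Osr1 was low in every mesenchymal cluster. The order was 13.9 CPM (6.37 to 26.4; 9 UMIs in 2 of 61 cells) in stellate-like cells of the positive recovery library, 8.94 CPM (4.62 to 15.6) in cluster 22 and 5.26 CPM (2.94 to 8.67) in cluster 12. These 3 intervals overlap one another and that of cluster 2. Stellate-like cells of the negative injury library had 0 Osr1 UMIs in 36 cells, which allows a level of up to 7.07 CPM. Background in the positive recovery library was read from cell types that should lack the gene. An Osr1 UMI was found in 3 of 78 Kupffer-like cells (17 UMIs, 20.7 CPM, median depth 8704) and 2 of 44 T or NK cell-like cells (3 UMIs, median depth 5811.5). Of the 17 UMIs, 9 lay in 1 Kupffer-like cell. Sinusoidal endothelial-like cells had 4.27 CPM (5 UMIs in 5 of 121 cells, median depth 9105), so the background differed between types. Thinned to 1000 UMIs, Kupffer-like and T or NK cell-like cells had 0 of 78 and 0 of 44 cells with one. The thinned shares were 104 of 332 (31.3%) in cluster 10 and 8 of 884 (0.905%) in cluster 2. The shallow unnamed cluster 17, with a median of 1641.5 UMIs and markers of mesothelium and of hepatocytes, had 38.2 CPM (18.3 to 70.2; 10 UMIs).

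**Figure D2:**
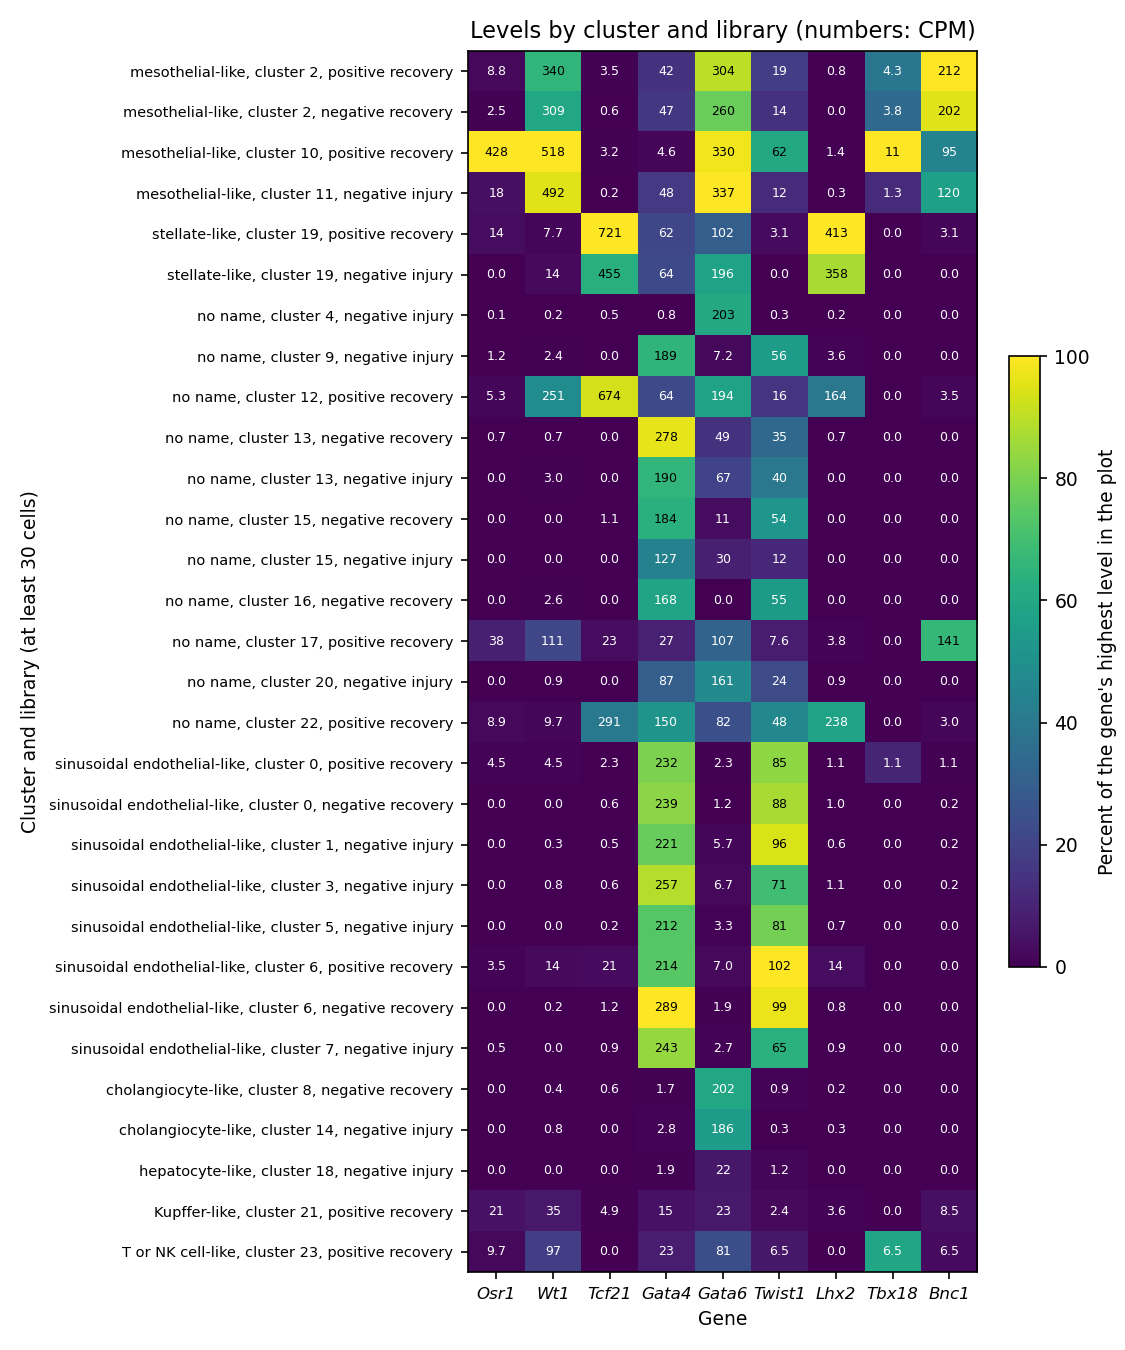
Level of each factor (columns, CPM printed in the cells) in every cluster and library with at least 30 cells (rows), coloured by the percent of that gene's highest level in the plot. Osr1 peaks in cluster 10 at 428 CPM, Tcf21 and Lhx2 in stellate-like cluster 19 at 721 and 413 CPM, and Gata4 and Twist1 are carried by sinusoidal endothelial-like clusters where Gata6 is near 0.

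Wt1, Bnc1 and Tbx18 were the other mesothelial factors, and each had its own order among the mesothelial-like clusters. Wt1 was at 518 CPM (500.4 to 536) in cluster 10, 340.1 CPM (331 to 349) in positive recovery cells and 309 CPM (283 to 338) in negative recovery cells of cluster 2, and 492 CPM (475 to 510) in injury cluster 11. Clusters 10 and 11 had overlapping intervals, as did both libraries of cluster 2. Bnc1 was instead lowest in cluster 10, with 94.96 CPM (87.5 to 103) in cluster 10, 212 CPM (206 to 219.6) and 202 CPM (181 to 226) in positive and negative recovery cells of cluster 2, and 120.2 CPM (112 to 129) in cluster 11. Tbx18 was low throughout, at 11.01 CPM (8.57 to 13.9) in cluster 10, 4.31 and 3.78 CPM in cluster 2, and 1.32 CPM (0.571 to 2.61) in cluster 11. In cluster 2, the only mesothelial-like cluster with 30 or more cells in both fractions, the positive and negative recovery cells had overlapping intervals for Wt1, Gata4, Twist1, Lhx2, Tbx18, Bnc1 and Tcf21, but not for Osr1 or Gata6 (304 CPM, 296 to 313, against 259.5 CPM, 235 to 286). Summed sinusoidal endothelial markers were 224 CPM in positive and 904.5 CPM in negative recovery cells of this cluster, with 0 of 12 markers at 0 in either, and their part in these values was not tested.

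Wt1 was not limited to mesothelial-like cells. Cluster 12 had 251 CPM (233 to 270.4) with a Wt1 UMI in 183 of 257 cells, whereas stellate-like cluster 19 had 7.74 CPM (2.51 to 18.1) in the positive recovery library and 14.2 CPM (5.19 to 30.8) in its negative injury cells. In the positive recovery library Wt1 was at 35.3 CPM in Kupffer-like cells (8 of 78 cells, with 20 of the 29 UMIs in 1 cell). T or NK cell-like cells had 97.0 CPM, where 2 of 44 cells carried all 30 UMIs and 1 of them carried 29. Sinusoidal endothelial-like cells had 6.835 CPM (8 UMIs in 7 of 121 cells), so the background of Wt1 also differed between types. Mesothelial markers in cluster 12 summed to 449 CPM, against 13360 CPM in cluster 2 and 9457 CPM in cluster 10 of the same library, and none of the 12 was at 0.

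Tcf21 and Lhx2 marked the stellate-like cells and cluster 12, and both were close to 0 in mesothelial-like cells. Tcf21 stood at 721 CPM (657 to 789.8) in stellate-like cells of positive recovery, 455 CPM (393 to 524) in those of negative injury, 674 CPM (645 to 705) in cluster 12 and 291 CPM (263 to 322) in cluster 22. Lhx2 stood at 413 CPM (365 to 466), 358 CPM (304 to 420.2), 164 CPM (149.8 to 179.9) and 238 CPM (212 to 265) in the same groups. The Tcf21 interval of cluster 12 overlapped that of positive recovery stellate-like cells, but its Lhx2 interval lay below those of both stellate-like groups. In cluster 10 the levels were 3.19 CPM for Tcf21 and 1.44 CPM for Lhx2, and in positive recovery cells of cluster 2 they were 3.47 and 0.779 CPM. Over the 30 sums of a cluster in a library with at least 30 cells, log2(CPM + 10) of Tcf21 and Lhx2 had a Pearson correlation of 0.981, the highest among the 36 pairs of members. These sums share libraries and sequencing depth, so this is a description of where both are found.

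In single cells of the positive recovery library an Lhx2 UMI was found in 66.4% of the 381 cells with a Tcf21 UMI and in 2.34% of the 1664 cells without one. Thinned to 1000 UMIs the shares were 15.3% of 163 and 2.55% of 1882 cells. Cells with Wt1, Tcf21 and Lhx2 together numbered 145, of which 131 (90.3%) lay in cluster 12. Within cluster 12, Tcf21 was found in 175 of 183 cells with a Wt1 UMI and in 40 of 74 cells without one. These last counts are unthinned, and both genes are more often found in deeper cells, so a link between them inside the cluster cannot be read from this.

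Since Tcf21 and Lhx2 were high in the same cells, the sequences around their starts are shown, from 250 bases before to 50 bases after each start, read 5′ to 3′ on the strand of the gene (RefSeq, GRCm38.p6). Tcf21 has 1 start in that table (chr10:22820094-22820393, minus strand) and Lhx2 has 2 (chr2:38339031-38339330 and chr2:38351058-38351357, plus strand). Capitals mark an E-box (CANNTG), the letters that basic helix-loop-helix factors such as Tcf21 and Twist1 are known to bind.
Tcf21: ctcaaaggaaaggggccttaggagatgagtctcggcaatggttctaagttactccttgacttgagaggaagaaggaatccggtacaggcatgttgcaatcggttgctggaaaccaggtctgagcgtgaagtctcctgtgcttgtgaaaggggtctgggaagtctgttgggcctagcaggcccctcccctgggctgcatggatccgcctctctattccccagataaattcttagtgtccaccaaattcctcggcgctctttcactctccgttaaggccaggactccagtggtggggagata
Lhx2, first start: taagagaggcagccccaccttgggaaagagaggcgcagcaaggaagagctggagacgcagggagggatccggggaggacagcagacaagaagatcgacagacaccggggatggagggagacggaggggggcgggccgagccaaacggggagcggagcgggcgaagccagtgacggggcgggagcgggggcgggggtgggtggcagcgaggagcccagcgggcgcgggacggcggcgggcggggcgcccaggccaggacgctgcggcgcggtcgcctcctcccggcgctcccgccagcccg
Lhx2, second start: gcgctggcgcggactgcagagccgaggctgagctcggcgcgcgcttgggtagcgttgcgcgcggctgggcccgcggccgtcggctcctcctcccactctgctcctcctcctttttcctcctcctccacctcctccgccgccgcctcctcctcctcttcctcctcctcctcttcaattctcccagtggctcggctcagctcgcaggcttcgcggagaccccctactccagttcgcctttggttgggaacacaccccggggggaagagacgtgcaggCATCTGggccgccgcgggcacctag

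The first Lhx2 window was 74.7% G or C, the second 69.3% and the Tcf21 window 53.3%, against a median of 52.7% over 32841 promoters. The letters CANNTG, searched on both strands, occurred in 72.3% of all promoters but in neither the Tcf21 nor the first Lhx2 window, and once in the second Lhx2 window. GATAAG, a form bound by GATA factors, was found in 7.44% of promoters, TAATTA, a form bound by homeodomain factors, in 5.29%, and TCACACC, a form bound by T-box factors, in 3.98%. None of these last 3 was found in the windows of the 5 members in the table (Tcf21, Twist1, Lhx2, Tbx18 and Bnc1). These matches describe letters in the windows alone.

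The 2 GATA factors split the cell types between them. Sinusoidal endothelial-like cells had Gata4 at 227 CPM (201 to 256) in positive recovery, 256 CPM (249 to 264) in negative recovery and 232 CPM (226 to 239) in negative injury, where clusters 0 and 6 made up nearly all recovery cells and clusters 1, 3, 5 and 7 the injury cells. These cells numbered 121 of 2045 in positive and 1936 of 2812 in negative recovery, and their Gata4 intervals overlapped between the fractions although the library sums did not. Gata6 in the same cells was 3.42 CPM (0.931 to 8.75), 1.43 CPM (0.914 to 2.12) and 5.07 CPM (4.14 to 6.14). Cholangiocyte-like cells had the opposite makeup, with Gata6 at 189.9 CPM (141 to 251), 201 CPM (189.5 to 214) and 181 CPM (169 to 194), and Gata4 at 0 UMIs in 24 positive recovery cells, 1.68 CPM in negative recovery and 3.78 CPM in negative injury cells. Mesothelial-like clusters 2 and 11 carried both genes, with Gata6 at 304 and 259.5 CPM in positive and negative recovery and 337 CPM at injury, and Gata4 at 42.4, 47.2 and 48.3 CPM. Cluster 10 kept Gata6 (329.7 CPM, 316 to 344) but had Gata4 at 4.63 CPM (3.10 to 6.65), below every other mesenchymal cluster.

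Both were also present in stellate-like cells, with Gata4 at 61.9 CPM in positive recovery and 63.7 CPM in negative injury and Gata6 at 102 CPM (79.0 to 130.0) and 196 CPM (156 to 243), and in cluster 12, with 64.5 and 194 CPM. Among unnamed clusters whose best marker list was sinusoidal endothelial, Gata6 levels varied. Cluster 13, led by Rspo3 and Vwf, had Gata6 at 49.3 CPM (38.2 to 62.6) in negative recovery and 67.2 CPM (49.0 to 89.9) in negative injury cells, beside Gata4 at 278 and 189.6 CPM. Cluster 15, led by Fabp4, Vwf and Ptprb, had 11.4 and 30.2 CPM of Gata6 beside 184 and 127 CPM of Gata4. In shallow cluster 16 no Gata6 UMI was found in 135 negative recovery cells, which allows up to 7.90 CPM, and shallow cluster 9 had 6 UMIs (7.17 CPM; 2.63 to 15.6) in 366 negative injury cells. Over the 30 sums the correlation of Gata4 and Gata6 was -0.673, again a description.

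**Figure D3:**
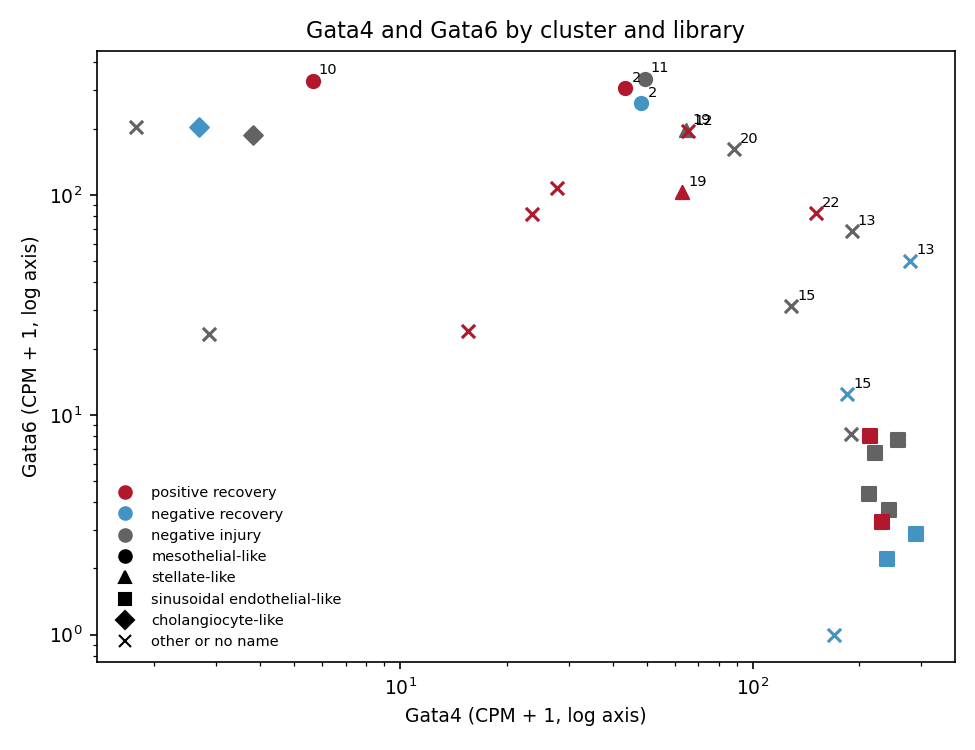
Gata4 against Gata6 (CPM with 1 added, log axes) in each cluster and library with at least 30 cells. Squares of sinusoidal endothelial-like clusters lie at high Gata4 and low Gata6, diamonds of cholangiocyte-like clusters the other way round, and cluster 10 stands apart from the other mesothelial-like clusters (circles) by a Gata4 of 4.63 CPM.

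Among the named classes Twist1 was highest in sinusoidal endothelial-like cells, as Gata4 was, but its level did not follow Gata4 everywhere. Sinusoidal endothelial-like cells had 88.9 CPM (72.6 to 108), 92.0 CPM (87.5 to 96.7) and 80.9 CPM (77.1 to 84.9) in positive recovery, negative recovery and negative injury, and the correlation of Twist1 with Gata4 over the 30 sums of all cell types was 0.798. In cluster 13 Twist1 was at 34.6 CPM (25.4 to 45.95) in negative recovery and 40.3 CPM (26.6 to 58.7) in negative injury cells, below the sinusoidal level, while Gata4 was at 278 and 189.6 CPM. Most Twist1 UMIs of the negative recovery library (56.1% and 34.3%) came from sinusoidal endothelial-like clusters 0 and 6. Among mesothelial-like cells Twist1 was at 61.6 CPM (55.6 to 68.1) in cluster 10, where Gata4 was lowest, against 19.1 CPM (17.0 to 21.3) in positive recovery cells of cluster 2, 14.5 CPM in negative recovery cells and 12.1 CPM (9.46 to 15.2) in injury cluster 11. In the positive recovery library 40.8% of Twist1 UMIs came from cluster 10 and 33.6% from cluster 2.

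Osr1 and Wt1 were found in the same cells. Of the 415 positive recovery cells with an Osr1 UMI, 390 (94.0%) also had a Wt1 UMI, against 972 of the 1630 cells without Osr1 (59.6%), at median depths of 16386 and 11501 UMIs. With all cells thinned to 1000 UMIs the shares were 32.5% of 117 (24.1 to 41.8) and 19.4% of 1928 (17.7 to 21.2), a difference of 13.1 percentage points (4.52 to 22.5). The difference was smaller within mesothelial-like cells, at 32.1% of 112 against 28.4% of 1106 thinned cells, or 3.75 points (-5.20 to 13.6). Most Wt1 cells had no Osr1 UMI, and of these 972 cells 711 (73.1%) lay in cluster 2 and 177 (18.2%) in cluster 12. Of the 390 double-positive cells 287 (73.6%) lay in cluster 10 and 86 (22.1%) in cluster 2, and 378 of them had Gata6 too.

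The stellate factors were seldom found beside Osr1. A Tcf21 UMI was found in 22 of the 415 Osr1 cells (5.30%) and in 22.02% of cells without Osr1, and an Lhx2 UMI in 20 (4.82%) and in 16.7%. Thinned, Tcf21 was found in 1 of 117 and in 8.40% of 1928 cells (-7.55 points, -9.12 to -3.55), and Lhx2 in 0 of 117 and in 3.79% (-3.79 points, -4.74 to -0.579). Among mesothelial-like cells alone neither pair differed much, with Tcf21 in 2.91% of 378 Osr1 cells and 3.93% of 840 others and Lhx2 in 2.38% and 1.43%, unthinned. Osr1, Tcf21 and Lhx2 were detected together in 11 cells, of which 5 lay in cluster 12, 3 in cluster 22, 2 in stellate-like cluster 19 and 1 in cluster 10.

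For Gata4 the unthinned shares were 20.5% of Osr1 cells and 41.8% of the others, and 0.855% (1 cell) and 4.51% after thinning, a difference of -3.66 points (-4.98 to 0.258). Gata6, Bnc1, Twist1 and Tbx18 were more often found beside Osr1 in unthinned cells (93.7%, 74.0%, 50.8% and 12.3% of Osr1 cells, against 65.1%, 45.8%, 17.9% and 3.37% of the others). Of these, the thinned difference had an interval above 0 for Gata6 alone (29.9% against 17.3%; 12.6 points, 4.29 to 21.9).

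**Figure D4:**
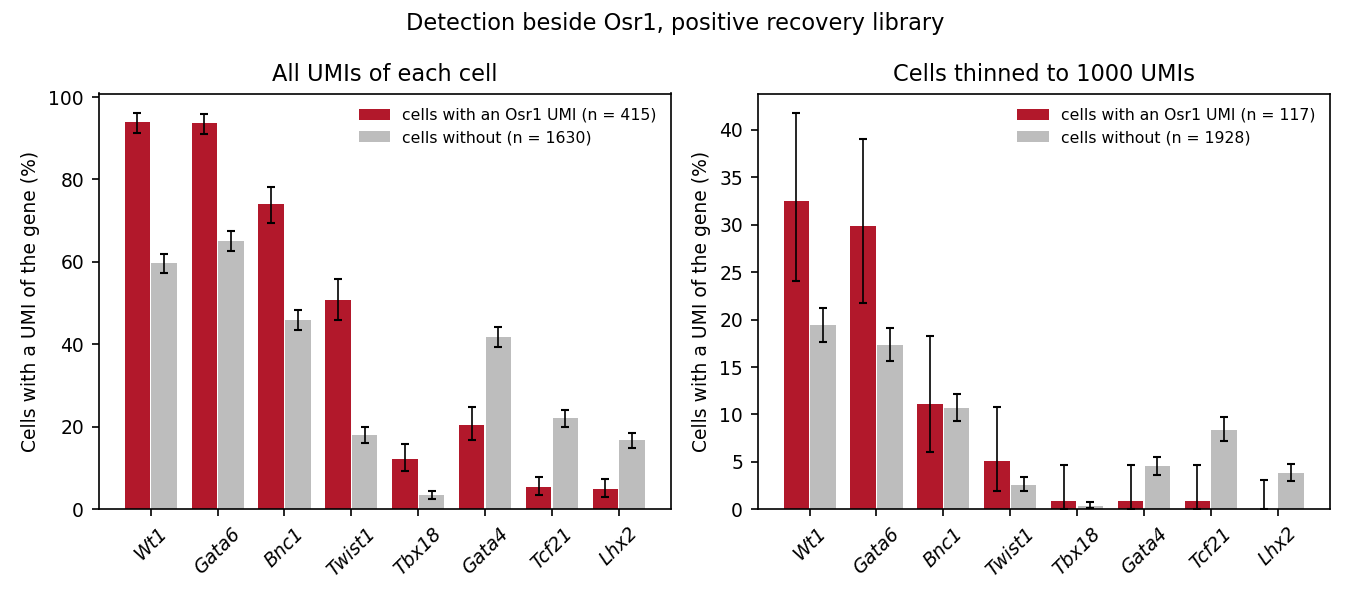
Share of positive recovery cells with a UMI of each factor, among cells with an Osr1 UMI (red) and cells without one (grey), using all UMIs (left) or cells thinned to 1000 UMIs (right), with exact Clopper-Pearson 95% intervals. Wt1 and Gata6 are found more often beside Osr1 in both panels, and Tcf21 and Lhx2 less often.

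Within the mesothelial-like cells of the positive recovery library the other factors changed with the number of Osr1 UMIs in a cell. The 840 cells with 0, 95 with 1, 92 with 2 to 4, 86 with 5 to 9 and 105 with 10 or more Osr1 UMIs had median depths of 15269, 16992, 15555.5, 14620.5 and 19596 UMIs. In that order Gata4 was at 41.4, 34.3, 14.5, 7.22 and 3.89 CPM, and Twist1 at 20.7, 26.9, 48.5, 60.4 and 61.5 CPM. Wt1 was at 338, 416, 497, 502 and 516 CPM over the same bins, and Bnc1 at 206, 203, 108, 106 and 106 CPM. Gata6 stayed between 301 and 351 CPM in all 5 bins. Tcf21 and Lhx2 were at or below 5.25 and 2.23 CPM in every bin.

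These steps followed the split into clusters. Cluster 2 held 94.9% of the cells with 0 Osr1 UMIs, 70.5% of those with 1 and 18.5% of those with 2 to 4, and cluster 10 held 97.7% and 99.0% of the upper bins. Inside a cluster, cells with and without an Osr1 UMI had overlapping intervals for all but 1 of the values compared. In cluster 10 Gata4 was at 4.35 CPM (2.81 to 6.42) in the 291 cells with Osr1 and 7.75 CPM (2.11 to 19.9) in the 41 without, Twist1 at 61.7 and 60.1 CPM, Wt1 at 518 and 515.5 CPM, and Bnc1 at 95.7 and 87.2 CPM. In cluster 2 Gata4 was at 42.2 CPM (34.0 to 51.7) in the 87 cells with Osr1 and 42.4 CPM (39.2 to 45.9) in the 797 without, and Twist1 at 17.0 and 19.4 CPM, at median depths of 21158 and 15459 UMIs. Wt1 was the exception there, at 391 CPM (365 to 418) with Osr1 and 332 CPM (323 to 342) without. In cluster 11 of the injury library all 45 Osr1 cells had a Wt1 UMI, where 290 of all 313 mesothelial-like cells of that library had one (92.7%). Gata4 was found in 29 of the 45 (64.4%) and in 53.8% of the 266 others. These shares are from unthinned cells.

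**Figure D5:**
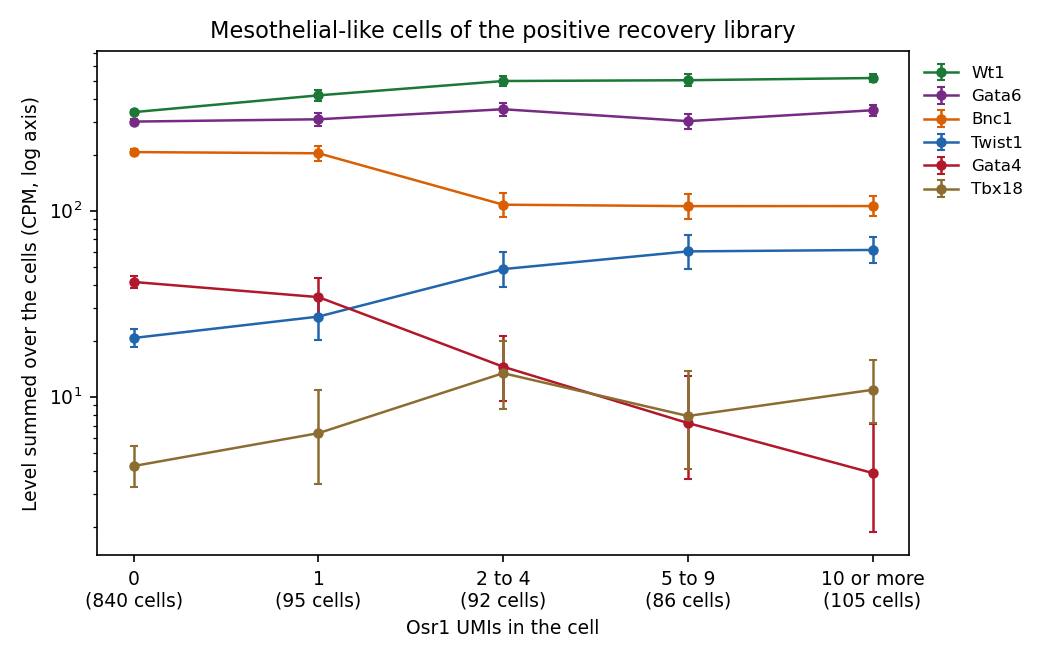
Level of 6 factors (CPM, log axis) in mesothelial-like cells of the positive recovery library, grouped by the number of Osr1 UMIs in the cell, with exact Poisson 95% intervals. Gata4 is at 41.4 CPM in cells without Osr1 and 3.89 CPM in cells with 10 or more UMIs, Twist1 at 20.7 and 61.5 CPM, and Gata6 stays between 301 and 351 CPM.

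The genes most like each factor were taken from the 13725 genes with at least 100 UMIs, by the Pearson correlation of log2(CPM + 10) over the same 30 sums. The 10 nearest to Osr1 were Pianp (0.943), Chl1 (0.939), Gng13 (0.937), Mfap5 (0.934), Vit (0.928), Alox15 (0.926), Isl1 (0.912), Faim2 (0.909), Adora2b (0.909) and Enpp2 (0.903). Each was highest in cluster 10 among the mesothelial-like, stellate-like and unnamed mesenchymal clusters 2, 10, 11, 12 and 19. The choice by likeness to Osr1, itself highest in cluster 10, favours such genes, so this is not a separate result. Mfap5, a microfibril-associated glycoprotein, was at 579.8 CPM in cluster 10 and 15.8 and 18.9 CPM in positive and negative recovery cells of cluster 2. Enpp2 (autotaxin, which makes lysophosphatidic acid) was at 844 CPM in cluster 10 and 4.19 CPM in cluster 2, and Isl1, a LIM homeodomain factor, at 60.3 and 5.15 CPM. Without the cluster 10 sum, the correlations of these 10 genes with Osr1 were 0.665 to 0.812 over the 29 other sums. The sums share libraries, depth and free RNA.

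The nearest 3 genes to Wt1 were Ildr2, Adgrd1 and Cdh11 (0.959 to 0.968), and to Bnc1 they were Esyt3, Prss12 and Anxa8 (0.988 to 0.991). Tcf21 was nearest to Mamdc2, Sparcl1 and Epha3 (0.982 to 0.986), and Lhx2 to Bmp5, Nr1h5 and Adamts13 (0.992 to 0.993). Gata4 was nearest to Il6st, Msrb3 and Bmpr2 (0.948 to 0.958), and Twist1 to Zfp503, Prickle1 and Npl (0.918 to 0.943). Gata6 was nearest to Cryab, Ergic3 and Emp2 (0.920 to 0.929), and Tbx18 to Sync, Pcdh15 and Eya2 (0.895 to 0.925). Between members, Osr1 correlated at 0.706 with Tbx18 (0.277 without the cluster 10 sum), 0.673 with Wt1, 0.602 with Bnc1, 0.4 with Gata6, 0.128 with Tcf21, 0.0737 with Lhx2, -0.037 with Twist1 and -0.389 with Gata4.

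Other transcription factors were counted in lists to set the members in context. Over all features, 5.58% were at least 2-fold higher and 6.42% at least 2-fold lower in positive than in negative recovery cells. Of 28 other mesenchymal factors tested, 9 were at least 2-fold higher in positive than in negative recovery cells and 3 lower, with a median log2 ratio of 0.18. Hand2, a heart and gut mesenchyme factor also found in stellate cells, was at 121 CPM in positive and 6.79 CPM in negative recovery cells (2.96), followed by Tbx20 (2.37), Foxf1 (2.20) and Runx1 (1.98). The 3 lower ones were Tbx2 (-1.69), Zeb1 (-1.48) and Nr2f1 (-1.25). Of 13 family relatives of the members 4 were higher (Tbx20, Bnc2 at 1.92, Gata5 at 1.84 and Lhx9 at 1.17) and 3 lower (Gata2 at -1.95, Lhx6 at -1.83 and Tbx2). Endothelial factors were lower in 13 of 15 cases (median -2.09), with Sox18 at 18.97 CPM against 226 CPM (-3.03), Hhex (-2.78), Prox1 (-2.47) and Maf (-2.44), and 0 were higher. Biliary and hepatic factors were lower in 9 of 14 (median -1.10; among them Sox9 -2.59, Prox1 and Ehf -2.01) and higher in 1, the bile acid receptor Nr1h4 (1.5). Of 13 leukocyte factors Cebpb (2.25) and Spi1 (1.02) were higher. Ptprc, a marker of all leukocytes, was at 28.0 CPM in positive and 0.443 CPM in negative recovery cells, and its part in these 2 values was not tested.

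In negative recovery against negative injury cells 0 of 23 other mesenchymal factors and 0 of 12 relatives were past 2-fold. Over all features 0.946% were at least 2-fold higher and 2.06% lower, so a count of 0 in lists this short says little. Sox18 (1.6) was higher and Tbx1 (-1.01) lower among 16 endothelial factors, Elf3 (-1.17), Ehf (-1.03) and Foxa3 (-1.02) were lower among 14 biliary and hepatic factors, and Cebpb (-1.30) was lower among 9 leukocyte factors. The median log2 ratio was -0.26 over the 9 members and 0.03 over all features.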

How the data were processed

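The deposited tables hold raw UMI counts per gene and cell barcode, from software version 3.1.0 per the file headers and from 10x Genomics single cell 3' v2 libraries per the labels' protocols. Per the submitters' processing notes, featureCounts 1.6.2, fastp and the builds mm10 and GRCh38 were used. Aligner and cell calling were not given in the sources used here. Of the data, the 3 libraries analysed held 33442403 (positive recovery), 27816768 (negative recovery) and 49993127 (negative injury) UMIs over 2606, 3108 and 6160 barcodes, and any pair of them shared 3 to 8 barcodes.

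The members, gene lists and tests were chosen with earlier results of these data known, and the naming rule below after the clusters were seen. Cells were kept with at least 1000 UMIs, 300 genes and at most 20% mitochondrial UMIs. Scrublet (scanpy 1.11.5) doublet calls were removed: 108 of 2488, 6 of 2955 and 5 of 5448 cells. The cells used held 31207842, 27104625 and 48496660 UMIs. Clusters came from 2000 variable genes without the members, 30 components, 15 neighbours and Leiden resolution 1, with no integration and the random seed 7. A cluster was named "-like" when at least 75% of a marker list was at least 2-fold above the median cluster with 50 CPM added, no other compartment reached this, its depth was at least 0.333 of the library median and no markers of another type led its top 10 genes. For likeness each cluster counted as a class.

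Counts were summed per library or cluster and divided by the summed total (CPM). Log2 ratios have 10 CPM added, and called means past 2-fold among features with at least 10 UMIs. Intervals are exact Poisson for levels and exact Clopper-Pearson for shares. A count of 0 is limited by 3 counts. Genes were named as all members, the 10 genes nearest to Osr1 and 3 for each other member, and up to 4 called genes per list with the largest ratios. Of the feature IDs 31011 were in GENCODE M21. The steps were tested on simulated data. Tools were edgeR 4.0.16 (TMM factors alone), scipy 1.17.1 and leidenalg 0.10.2. The value of 1 gene of the lists that the rule would name is not reported here.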

Additional observations from a re-analysis of the deposited data

How the results depend on the processing

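Of the main results recomputed under other settings 94 kept their value within the margin and 20 moved, and of the other values 161 kept it and 41 moved. These counts do not show whether any small value changed sign. With 1 CPM added in place of 10 CPM, 7 members were higher in positive recovery (Tbx18 joined; 13.2% of features) and 2 lower (Gata4 and Twist1; 12.6%), and 2 were lower in negative recovery against injury (Osr1 and Wt1; 5.85%). With 50 CPM, 5 were higher in positive recovery (Lhx2 dropped out; 2.13%) and 1 lower (2.54%), and 0 were lower in negative recovery against injury (0.734%). The Osr1 and Wt1 difference was 34.3 points in unthinned cells, 30.8 points at 3000 UMIs and 3.75 points in mesothelial-like cells alone. For Gata4 it was -21.3 points unthinned, -13.1 points at 3000 UMIs, -5.27 points with no doublets removed, -5.39 points with the highest-scoring cells removed and -5.20 points with another seed. Tcf21 gave -16.7 points unthinned, -14.8 points at 3000 UMIs, -0.271 points in mesothelial-like cells and -2.49 points in named mesenchymal classes, and Lhx2 gave -11.9, -7.26 and 0 points under the first 3 of these settings. Stellate-like cells had 620 CPM of Tcf21 and 346 CPM of Lhx2 with the highest-scoring cells removed. The cause of the moves was not tested. In every clustering tried, the cluster richest in Osr1 had 316 to 337 cells at 425 to 435 CPM and 90.5% to 94.0% of the Osr1 UMIs. No paired analysis was possible because each group is 1 library. Thinned shares rest on few cells, and depth limits statements on Osr1 in the negative libraries and on Tbx18.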
